A study of Mus musculus with 6 samples.

Results

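Condensin and cohesin core genes are described here in CD4+ effector T cells sorted by the activity of the drug efflux transporter Mdr1. The 10 genes were chosen by name: Smc2 and Smc4, shared by both condensins, Ncapd2, Ncapg and Ncaph of condensin I, Ncapd3, Ncapg2 and Ncaph2 of condensin II, and Smc1a and Smc3 of cohesin. All 10 were among the 23366 genes of the count table, and all 10 were among the 10897 genes that passed the filter on low counts. The study transferred T cells into Rag-deficient hosts, animals without T and B cells of their own, and the labels give FVB/N as the strain background of all samples. After 6 weeks CD4+ effector cells were taken from the mesenteric lymph nodes and sorted by rhodamine 123, a dye that Mdr1 pumps out. Mdr1+ cells kept little dye and Mdr1- cells kept much of it, and each fraction gave 3 libraries of total RNA. Both fractions came from the same kind of host, site and time, and the labels state neither whether mice were pooled nor whether same-numbered libraries came from the same mice.

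Condensins and cohesin are ring-shaped complexes in which a pair of SMC ATPases is closed by a kleisin subunit and carries further subunits made of HEAT repeats. The condensins fold and stiffen chromosomes for mitosis, condensin II from inside the nucleus and condensin I mainly after the nuclear envelope opens. Cohesin holds sister chromatids together after replication and also forms chromatin loops in cells that do not divide, so its core is made in resting and cycling cells alike. Genes used in mitosis are often repressed in resting cells through a short promoter element, the CHR (TTTGAA). Many of them also carry the CCAAT box, while many S phase genes carry E2F sites.

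The 250 bases before the start of 7 of the genes are shown to set the genes that fell in Mdr1+ cells beside 2 that did not pass the test. Those of Ncaph2 and Smc1a, which also did not pass, and of a second start of Ncapd3 are not shown. Each of them held a motif described below, while the promoters shown for the 2 uncalled genes held none. Sequences are from RefSeq promoters (build GRCm38.p6, not the mm9 build of the counts), which held 9 of the 10 genes. Smc4, which did not pass, had no entry there, so its promoter was not searched. Smc2 at chr4:52438971-52439220, plus strand, Ncapd2 at chr6:125191587-125191836, minus strand, Ncapg at chr5:45669675-45669924, plus strand, Ncapg2 at chr12:116405186-116405435, plus strand and Ncaph at chr2:127133955-127134204, minus strand are the genes that fell, and Ncapd3 at chr9:27029915-27030164, plus strand and Smc3 at chr19:53600146-53600395, plus strand are genes that did not pass. They run 5′ to 3′ on the gene's strand, and capitals mark TTTGAA on either strand.
Smc2: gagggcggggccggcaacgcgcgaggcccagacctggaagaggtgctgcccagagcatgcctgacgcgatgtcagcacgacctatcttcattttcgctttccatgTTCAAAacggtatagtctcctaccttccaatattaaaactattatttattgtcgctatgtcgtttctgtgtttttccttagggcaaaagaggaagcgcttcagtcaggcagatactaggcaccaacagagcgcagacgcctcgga
Ncapd2: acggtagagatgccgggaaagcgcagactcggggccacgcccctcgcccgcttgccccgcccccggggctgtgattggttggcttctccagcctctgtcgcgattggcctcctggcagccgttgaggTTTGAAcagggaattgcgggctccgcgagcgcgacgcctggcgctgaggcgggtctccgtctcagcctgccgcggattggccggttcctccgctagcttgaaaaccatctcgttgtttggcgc
Ncapg: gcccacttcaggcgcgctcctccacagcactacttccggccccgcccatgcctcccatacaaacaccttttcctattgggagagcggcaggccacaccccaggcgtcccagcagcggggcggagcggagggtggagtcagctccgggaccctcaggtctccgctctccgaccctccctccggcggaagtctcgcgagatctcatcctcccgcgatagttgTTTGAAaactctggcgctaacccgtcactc
Ncapg2: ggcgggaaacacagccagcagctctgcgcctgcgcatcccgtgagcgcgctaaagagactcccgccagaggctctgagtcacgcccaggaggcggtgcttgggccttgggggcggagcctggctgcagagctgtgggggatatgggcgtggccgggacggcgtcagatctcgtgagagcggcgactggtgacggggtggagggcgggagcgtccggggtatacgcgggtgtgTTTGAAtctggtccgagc
Ncaph: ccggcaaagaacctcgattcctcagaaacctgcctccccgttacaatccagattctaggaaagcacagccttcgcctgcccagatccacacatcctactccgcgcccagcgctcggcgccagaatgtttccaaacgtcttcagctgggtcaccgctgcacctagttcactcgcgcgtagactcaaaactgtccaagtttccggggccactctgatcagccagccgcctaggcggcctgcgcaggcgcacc
Ncapd3: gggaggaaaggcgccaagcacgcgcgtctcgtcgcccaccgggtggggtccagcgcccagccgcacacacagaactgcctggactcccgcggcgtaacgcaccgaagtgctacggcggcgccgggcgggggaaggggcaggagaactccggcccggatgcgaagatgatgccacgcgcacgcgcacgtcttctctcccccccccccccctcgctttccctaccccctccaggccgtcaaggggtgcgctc
Smc3: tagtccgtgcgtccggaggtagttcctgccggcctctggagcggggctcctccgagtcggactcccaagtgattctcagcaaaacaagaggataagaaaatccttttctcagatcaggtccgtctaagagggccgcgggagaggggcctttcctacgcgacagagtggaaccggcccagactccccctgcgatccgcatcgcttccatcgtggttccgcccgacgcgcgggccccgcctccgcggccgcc

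TTTGAA was present in 4 of these 5 genes that fell, and Ncaph was the 1 without it. It lay 30 to 25 bases before the start in Ncapg, 18 to 13 in Ncapg2 and 123 to 118 in Ncapd2, and on the other strand 145 to 140 before the start in Smc2. Over all 32851 RefSeq promoters of this length, 16.0% held the motif. Counted by gene, 18.3% of 27025 genes held it before at least 1 start. It was not found before the start of Ncaph2, Smc1a or Smc3, and Ncapd3 held it only at a second start further into the gene. Ncaph2 held the variant TTCGAA at 22 to 17 bases before its start, as did 1.34% of all promoters and 1.55% of genes. CCAAT, on either strand, was present 3 times in Ncapd2 and 1 time each in Smc2, Ncapg and Smc1a. At least 1 was present in 33.9% of all promoters and 37.5% of genes. An E2F match (TTTGGCGC or TTTCCCGC, either strand) was present in Ncapd2 at its start and in Ncapg2 at 249 to 242 bases before it. Such a match was present in 1.30% of all promoters and 1.51% of genes. No motif overlapped another in the 9 genes. A match of letters does not show that a factor binds there.

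The libraries held 2220691 to 20771456 counts in genes, so that 3 counts corresponded to 0.144 to 1.35 CPM, counts scaled to a library total of 1000000. The 10 genes had 49 to 4788 counts in every library. The Mdr1+ library of replicate 3 was the shallowest and lay far from the other 5 along the leading principal component (59.2% of the variance). All 10 T cell markers were present, and their summed level was 5418 to 6726 CPM among Mdr1+ and 5824 to 6348 CPM among Mdr1- libraries. In edgeR's quasi-likelihood test 0 of the 10 passed, 0 had an unadjusted p below 0.05, and DESeq2 called 0. Abcb1a, which encodes Mdr1 and was read here to check the sort, was higher in Mdr1+ cells (162 ± 26.3 against 62.8 ± 18.0 CPM, SD, n = 3, log2 fold change 1.37, adjusted p = 0.024). Markers of other cell types were read in the same way, and their part in the results was not tested. The 6 myeloid markers summed to 12.3, 12.1 and 23.0 CPM in Mdr1+ libraries 1, 2 and 3 and to 14.01, 11.2 and 100.1 CPM in Mdr1- libraries 1, 2 and 3, so that 1 library stood out and the other 5 did not separate by group. The 6 dendritic cell markers had a sum of 21.7 to 37.8 CPM among Mdr1+ and 50.7 to 75.1 CPM among Mdr1- libraries, without overlap. The 2 NK cell markers had a sum of 15.6 to 19.8 against 8.93 to 14.1 CPM, also without overlap, and the 5 B cell markers one of 10.4 to 23.5 against 6.14 to 11.9 CPM. In these lists edgeR called 0 of 2 tested myeloid, 0 of 2 dendritic, 0 of 1 NK and 0 of 3 B cell markers. At an unadjusted p below 0.05, 1 myeloid and 2 dendritic markers were lower and 1 NK and 1 B cell marker higher in Mdr1+ cells. Over all 10897 tested genes, 787 were lower and 505 higher by that rule. DESeq2 called 1 myeloid and 1 dendritic marker lower and 0 of the other markers in these lists. Of 3 tested markers of stroma and endothelium edgeR called 1 lower, 2 were lower at an unadjusted p below 0.05, and DESeq2 called 1. The called marker was Acta2, a smooth muscle actin gene, at 0, 0.289 and 0 CPM in Mdr1+ and 4.20, 7.03 and 4.09 CPM in Mdr1- libraries. The summed level of this list, mostly Pecam1, was 111.5 to 182 CPM among Mdr1+ and 127 to 137 CPM among Mdr1- libraries. The 2 CD8 T cell markers summed to at most 2.37 CPM, and the red cell genes Hba-a1 and Hbb-b1 were at 0 counts in every library.

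Mdr1+ cells had less transcript of 5 of the 10 genes. These were all 3 subunits particular to condensin I (Ncapd2, Ncapg, Ncaph), the shared ATPase Smc2, and Ncapg2 of condensin II, with levels between 2.80-fold and 5.17-fold lower. The shared ATPase Smc4, the condensin II subunits Ncapd3 and Ncaph2, and both cohesin ATPases differed by 1.47-fold or less, and none of them passed. Tests were edgeR's quasi-likelihood F tests over all genes, with Benjamini-Hochberg adjusted p-values and a threshold of 0.05. Over all tested genes 1.95% were lower and 0.275% higher in Mdr1+ cells by the same rule. In bulk RNA, fewer dividing cells and less transcript per dividing cell cannot be told apart. With the replicate number as a block 8 of the 10 genes fell, against 6.57% of all tested genes, and Ncapd3 and Smc3 were those that did not pass.

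In 7 of the 10 genes every Mdr1+ library was below every Mdr1- library, against 11.0% of all tested genes, and in none was every Mdr1+ library above every Mdr1- library, against 8.71%. In 9 genes the Mdr1+ library was lower in all 3 pairs of the same replicate number, as in 24.6% of all tested genes, and Smc3 was the exception. The median log2 fold change was -1.56 over the 8 condensin genes and 0.04 over all tested genes. Exact permutation of the CPM values between groups (two-sided) gave p = 0.1 for each of the 7 genes without overlap, the smallest value that 3 libraries against 3 allow, 0.2 for Smc4 and Ncapd3, and 0.5 for Smc3.

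**Figure D1:**
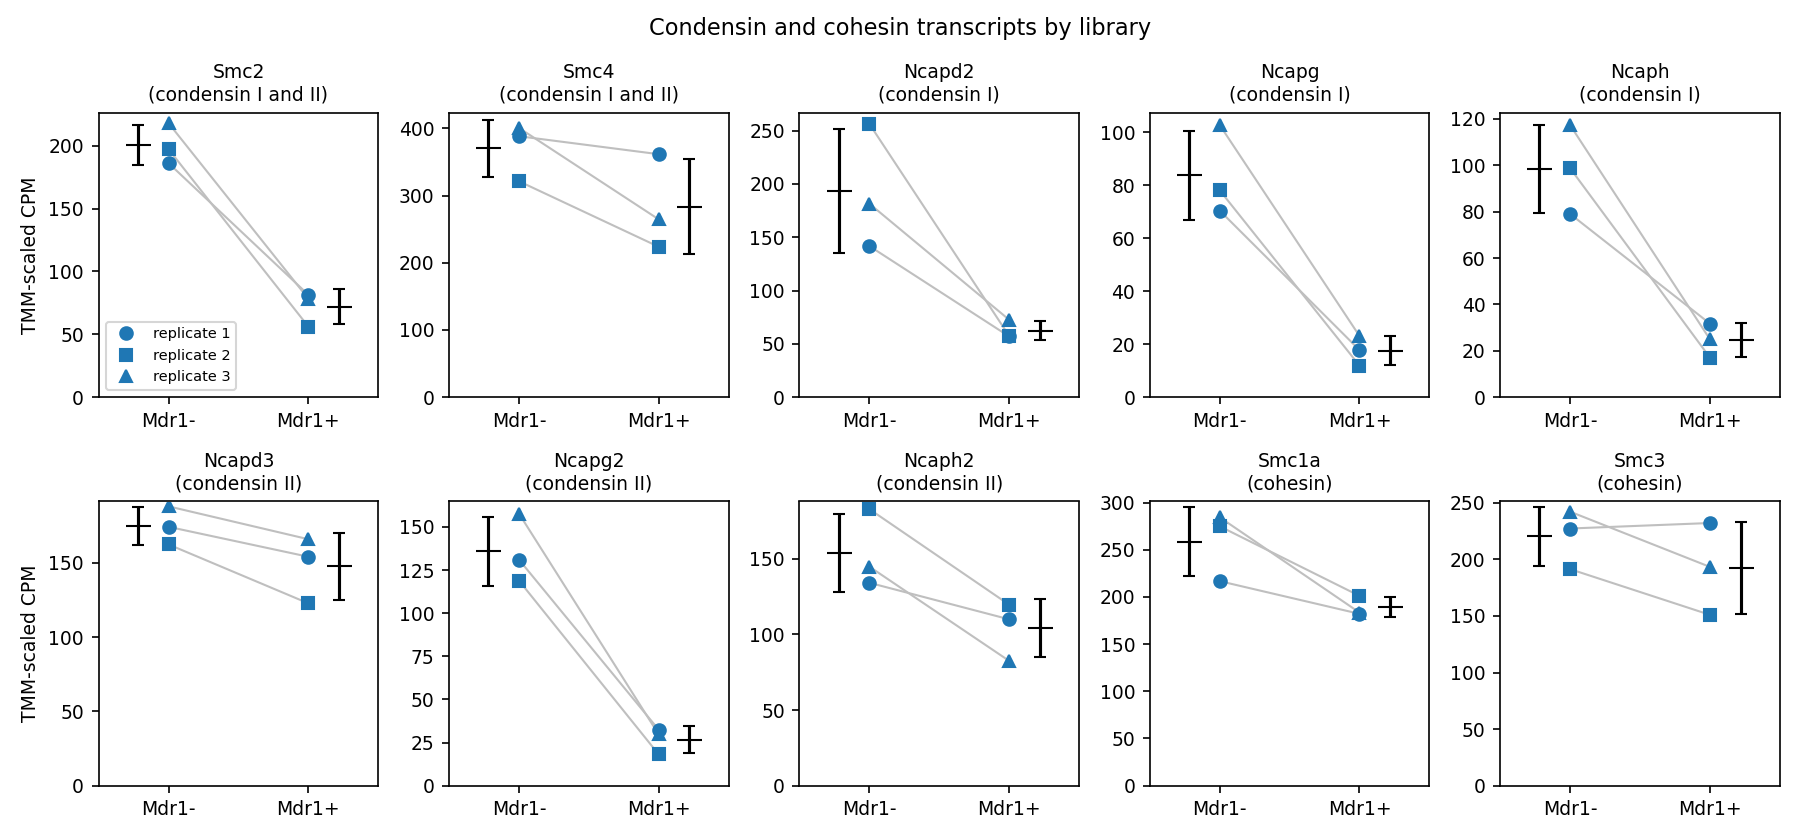
CPM with TMM scaling (linear y axis starting at 0) for the 10 genes in Mdr1- and Mdr1+ libraries, with 1 symbol per library, grey lines between libraries that share a replicate number, and the group mean ± SD (n = 3) in black. Smc2, Ncapd2, Ncapg, Ncaph and Ncapg2 fall steeply in every pair, while Smc4, Ncapd3 and Smc3 overlap between the groups.

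Among the subunits of condensin I, Ncapg, a HEAT repeat subunit that helps the complex grip DNA, was at 17.8, 11.9 and 23.1 CPM in Mdr1+ libraries 1, 2 and 3 and at 70.4, 78.1 and 103 CPM in Mdr1- libraries 1, 2 and 3. The highest Mdr1+ library was thus below the lowest Mdr1- library, and the log2 fold change was -2.31 ± 0.28 (standard error, adjusted p = 0.0047). Ncaph, the kleisin that closes the condensin I ring, was at 31.7, 17.1 and 25.0 CPM in Mdr1+ and at 79.0, 98.7 and 117 CPM in Mdr1- libraries. Its groups did not overlap, and the difference was smallest in replicate 1 (log2 ratio -1.32) and largest in replicate 2 (-2.53), around a fitted value of -2.01 ± 0.27 (adjusted p = 0.0065). Ncapd2, the other HEAT repeat subunit, was at 57.0, 57.5 and 72.6 CPM in Mdr1+ and at 142, 256 and 182 CPM in Mdr1- libraries. The Mdr1- libraries of Ncapd2 spread more widely than those of the other genes relative to their mean (193 ± 58.2 CPM, SD, n = 3), and its log2 fold change was -1.64 ± 0.24 (adjusted p = 0.0095).

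The subunits of condensin II did not move alike. Ncapg2, the counterpart of Ncapg, was at 32.4, 18.1 and 29.7 CPM in Mdr1+ and at 131, 119 and 158 CPM in Mdr1- libraries. Its log2 fold change of -2.37 ± 0.25 (adjusted p = 0.0038) was the lowest of the 10 genes. Ncaph2, the kleisin of condensin II, was at 110, 120 and 82.5 CPM in Mdr1+ and at 134, 183 and 145 CPM in Mdr1- libraries. Its groups did not overlap, and its log2 fold change of -0.56 ± 0.20 passed only with the block (adjusted p = 0.29 without it and 0.016 with it). Ncapd3, the counterpart of Ncapd2, was at 154, 123 and 166 CPM in Mdr1+ and at 174, 162 and 188 CPM in Mdr1- libraries. The highest Mdr1+ library of Ncapd3 was above the lowest Mdr1- library, and its log2 fold change was -0.25 ± 0.17 (95% interval -0.64 to 0.14, adjusted p = 0.65, and 0.11 with the block).

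Smc2 and Smc4, the ATPase arms that pair with each other in both condensins, differed in the size of their change. Smc2 was at 81.4, 56.1 and 78.3 CPM in Mdr1+ and at 186, 197 and 218 CPM in Mdr1- libraries, a log2 fold change of -1.48 ± 0.19 (adjusted p = 0.0058). Smc4 was at 362, 224 and 265 CPM in Mdr1+ and at 388, 321 and 401 CPM in Mdr1- libraries. Its Mdr1+ library of replicate 1 lay within the Mdr1- range, and its log2 fold change of -0.39 ± 0.21 (95% interval -0.86 to 0.09, adjusted p = 0.54) passed only with the block (-0.40, adjusted p = 0.041). The 95% intervals of the fold changes of Smc2 (-1.92 to -1.05) and Smc4 did not overlap. The difference between these 2 fold changes was not tested.

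Of the cohesin ATPases, Smc1a was at 182, 201 and 183 CPM in Mdr1+ and at 217, 275 and 284 CPM in Mdr1- libraries. The groups of Smc1a did not overlap, and the log2 fold change of -0.45 ± 0.17 passed only with the block (adjusted p = 0.31 without it and 0.019 with it). Smc3, whose acetylation locks cohesin on replicated DNA, was at 232, 151 and 193 CPM in Mdr1+ and at 227, 191 and 242 CPM in Mdr1- libraries. The groups overlapped, replicate 1 was level (log2 ratio 0.03), and the log2 fold change was -0.20 ± 0.20 (95% interval -0.65 to 0.25, adjusted p = 0.76, and 0.21 with the block). In edgeR's test without the block 0 of these 2 genes passed, 1 had an unadjusted p below 0.05, and DESeq2 called 0. Over all 10897 tested genes, 1292 had an unadjusted p below 0.05 in that edgeR test.

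**Figure D2:**
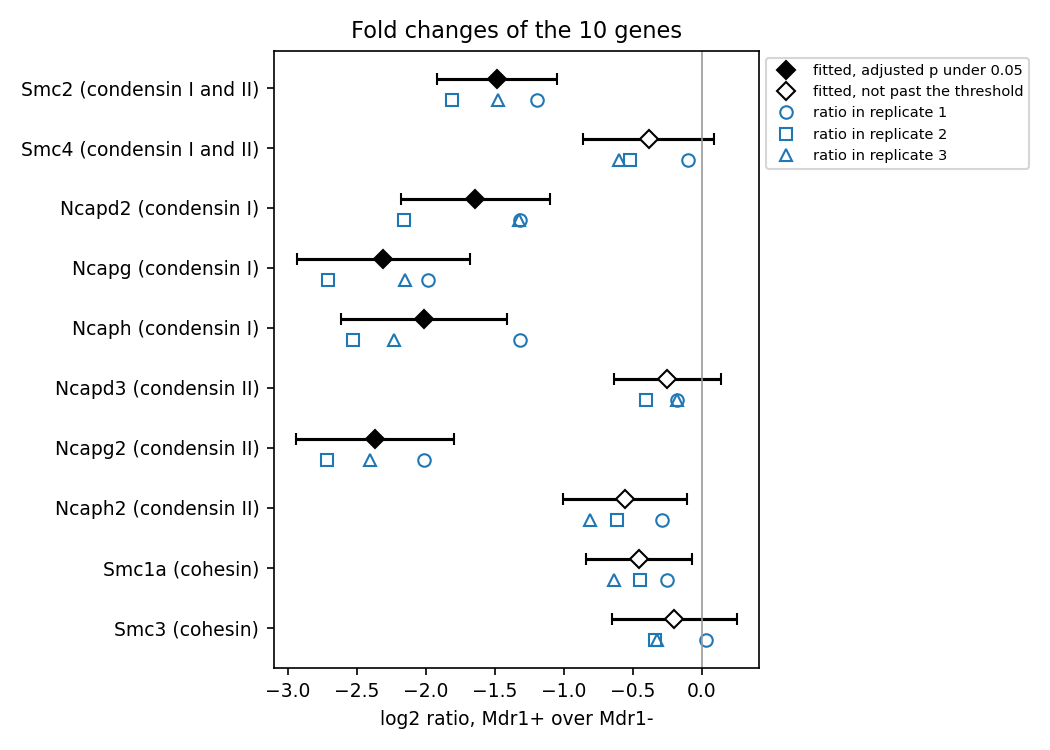
Change from Mdr1- to Mdr1+ as a log2 ratio (x axis) for each gene (y axis), where diamonds with bars are fitted log2 fold changes with 95% intervals, filled where the adjusted p was under 0.05, and blue open symbols are the ratios within the 3 replicate numbers. The 5 filled diamonds lie between -2.37 and -1.48, and the other 5 between -0.56 and -0.20.

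The 5 genes that fell kept their calls when any 1 of the 6 libraries was left out, with log2 fold changes between -2.61 and -1.33. Without the Mdr1- library of replicate 3, which had the highest myeloid sum, they were at -2.25 to -1.42, and without the Mdr1+ library of replicate 3 at -2.52 to -1.55. Without both libraries of replicate 3, where 0 of 11177 tested genes passed, none of the 5 passed in the fit without a block (log2 fold changes -2.37 to -1.51, adjusted p = 0.172 to 0.199). In that fit 5 of the 10 genes had an unadjusted p below 0.05, against 904 of all 11177 tested genes. Without replicate 2, Ncapg, Ncapg2 and Smc2 passed and Ncapd2 and Ncaph did not. In the fit with the block that left out replicate 3, 4 of the 5 passed, and Ncaph missed the threshold (adjusted p = 0.060). That blocked fit rests on few libraries and called 1347 of all 11177 tested genes lower and 1131 higher.

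Levels of different genes were compared per kilobase of transcript, with lengths of the principal coding transcript in GENCODE M21. In Mdr1- cells Smc4 was highest at 85.8 ± 9.9 CPM per kilobase (SD, n = 3), above all libraries of Smc1a, the next gene (55.2 ± 7.8). Below it followed Ncaph2 (46.7), Smc3 (45.4), Ncapd2 (41.7), Smc2 (37.1), Ncaph (36.5), Ncapd3 (31.8), Ncapg2 (29.0) and Ncapg (22.6 ± 4.6), and each neighbouring pair from Smc1a down overlapped over the 3 libraries. In Mdr1+ cells the order separated into groups. Smc4 was again highest (65.6 ± 16.4), and Smc1a, Smc3, Ncaph2 and Ncapd3 lay between 26.9 and 40.3 CPM per kilobase. The other 5 genes lay between 13.5 (Ncapd2) and 4.75 (Ncapg), and no library of theirs reached the lowest library of Ncapd3 (22.3). Transcript lengths come from an annotation other than the one behind the counts, so these orders are approximate.

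Ratios within a library do not depend on the scaling between libraries. The log2 ratio of condensin I over condensin II counts, each summed over its 3 particular subunits, was -1.48, -1.59 and -1.20 in Mdr1+ and -0.59, -0.10 and -0.29 in Mdr1- libraries of replicates 1, 2 and 3. It was thus lower in every Mdr1+ library, by 1.10 in the mean. This sum hides Ncapg2, which moved with the condensin I genes. The log2 ratio of Ncapg2 over Smc3 averaged -2.87 ± 0.18 in Mdr1+ and -0.70 ± 0.09 in Mdr1- libraries (SD, n = 3), while that of Ncapd3 over Smc3 averaged -0.37 ± 0.20 and -0.33 ± 0.08 and overlapped. The 8 condensin genes had a summed level of 738 ± 110 CPM among Mdr1+ libraries against 1411 ± 103 CPM among Mdr1- libraries, and the 2 cohesin genes one of 381 ± 31.3 against 479 ± 42.7 CPM (SD, n = 3 each).

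Most markers of cycling cells fell, as did 5 of the 8 condensin genes. Of 14 tested G2 and M phase markers 12 fell (14 with the block), and of 14 tested S phase markers 10 fell (12 with the block), with median log2 fold changes of -2.70 and -1.56. The 3 lowest adjusted p-values among G2 and M phase markers were those of Ccna2, a cyclin (-3.23), Ccnb2, a mitotic cyclin (-2.92), and Hmmr, a spindle protein (-3.22). Among S phase markers they were those of Rrm2, a ribonucleotide reductase subunit (-2.91), Cdc6, a replication licensing factor (-2.93), and Mcm3, a subunit of the replicative helicase (-1.60). The G2 and M phase markers summed to 183, 152 and 199 CPM in Mdr1+ and 687, 1409 and 1102 CPM in Mdr1- libraries, with no overlap. The calls became 6 and 5 without replicate 2 and 0 and 0 without replicate 3, for G2 and M phase and for S phase markers. Their part in the difference of the condensin genes was not tested.

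Set against the summed G2 and M phase markers of the same library, Ncapg and Ncapg2 differed least between the groups. The mean log2 ratio to these markers was 0.25 higher in Mdr1+ cells for Ncapg, 0.15 higher for Ncapg2 and 0.50 higher for Ncaph, and the libraries of the 2 groups overlapped for all 3 genes. For Smc2 and Ncapd2 it was 1.04 and 0.93 higher in Mdr1+ cells, without overlap. For Smc4, Ncapd3, Ncaph2, Smc1a and Smc3 it was 1.96 to 2.32 higher, also without overlap. Ncapg2 thus had the smallest and Smc3 the largest difference of the 10 genes on this scale. These ratios are descriptions without a test.

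**Figure D3:**
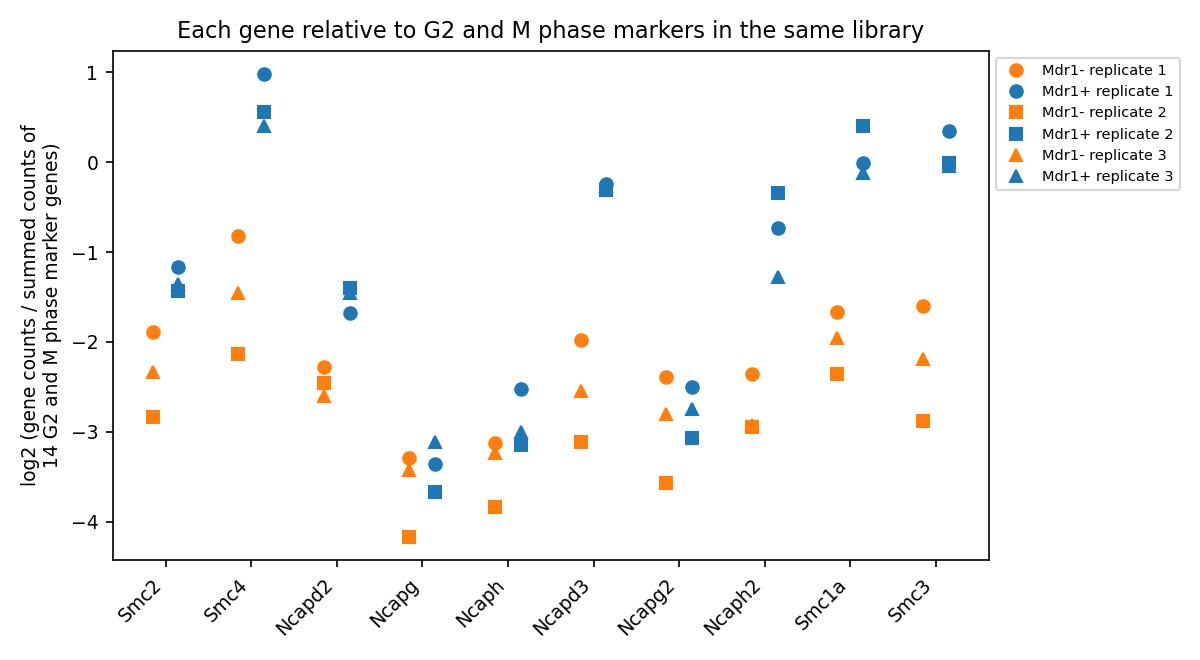
Log2 ratio of each gene's counts to the summed counts of 14 G2 and M phase marker genes in the same library (y axis) for the 10 genes (x axis), with Mdr1- libraries in orange, Mdr1+ libraries in blue and replicate numbers as symbols. Colours overlap for Ncapg, Ncaph and Ncapg2 and separate for the other 7 genes.

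Of 16 other tested subunits and regulators of cohesin 4 fell, and these were Esco2, Cdca5, Espl1 and Sgol1. Esco2, which acetylates Smc3 during replication, was at 5.98, 2.38 and 0.943 CPM in Mdr1+ and at 24.9, 26.3 and 32.6 CPM in Mdr1- libraries (log2 fold change -3.07 ± 0.47, adjusted p = 0.013). Every Mdr1+ library was far below every Mdr1- library. In the Mdr1+ library of replicate 3 the level of Esco2 lay below the 1.35 CPM that stood for 3 counts. Cdca5, which encodes the cohesion factor sororin, had a log2 fold change of -2.47, Espl1, the protease separase that cuts cohesin, one of -2.66, and Sgol1, a protector of centromeric cohesin, one of -2.95. Sgol1 had no count in the Mdr1+ library of replicate 3, the shallowest. The call of 4 genes became 2 without the Mdr1- library of replicate 3, and 0 without replicate 2 or without replicate 3.

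The remaining 12 of these 16 genes had log2 fold changes between -0.37 and 0.30, and none passed without the block. Rad21, the mitotic kleisin of cohesin, was at 385, 277 and 332 CPM in Mdr1+ and at 436, 383 and 436 CPM in Mdr1- libraries (-0.34 ± 0.18). Of the loader's subunits, Nipbl was at 0.12 and Mau2 at 0.30 on the log2 scale. Stag1 (-0.17) and Stag2 (0.06) are alternative core subunits, and Wapal (0.07), Pds5a (-0.35) and Pds5b (-0.37) act in release from DNA. The acetyltransferase gene Esco1 had a log2 fold change of 0.22, against -3.07 for Esco2, and the deacetylase gene Hdac8 one of 0.08. Pttg1, which encodes the separase inhibitor securin, differed from its partner Espl1 with a log2 fold change of -0.05, and Ctcf, which stops cohesin at loop borders, had one of -0.12. Directions of Stag2, Nipbl, Wapal, Esco1, Pttg1 and Hdac8 changed when libraries were left out. With the block Rad21 and Pds5a fell (adjusted p = 0.035 and 0.042) and Mau2 rose (adjusted p = 0.042), and 5.81% of all tested genes rose in that fit.

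Of 8 tested genes of the Smc5/6 complex and Smchd1, which act in DNA repair and X chromosome silencing, 0 passed in edgeR's test, 0 had an unadjusted p below 0.05, and 0 passed in DESeq2, with log2 fold changes between -0.73 and 0.12. A count of 0 in 8 is near the 1.95% called lower over all tested genes. With the block 1 fell, the ubiquitin ligase gene Nsmce1 (-0.80, adjusted p = 0.042), chosen after its values were seen. Of 5 genes listed for meiotic cohesin 2 were tested and 1, Sgol2, fell (-2.13, adjusted p = 0.033). Sgol2 also acts at mitotic centromeres, and its call was lost without the Mdr1+ library of replicate 2 or 3, without the Mdr1- library of replicate 2 or 3, without replicate 2 and without replicate 3.

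Of 12 genes that work with condensin on mitotic chromosomes 9 fell. Top2a, the topoisomerase that untangles chromosomes during condensation, was at 208, 134 and 152 CPM in Mdr1+ and at 579, 798 and 833 CPM in Mdr1- libraries (log2 fold change -2.16 ± 0.23, adjusted p = 0.0038). Its paralogue Top2b, which is made in resting cells, had one of -0.16 ± 0.25 (adjusted p = 0.87). Kif4, a chromosome-bound motor that partners condensin I, had a log2 fold change of -2.98, and Mki67, which coats mitotic chromosomes, one of -2.54. The chromosomal passenger genes Aurkb, Birc5, Cdca8 and Incenp had values of -2.82, -2.86, -3.27 and -1.20, and the kinase genes Cdk1 and Plk1, which phosphorylate condensin subunits, of -2.14 and -3.10. In the Mdr1+ library of replicate 3, the shallowest, Cdca8 had no count and Plk1 was at 0.943 CPM, below the level of 3 counts. Mcph1, an inhibitor of condensin II, had a log2 fold change of -0.38 and did not pass. With the block Akap8, which encodes a chromatin anchor protein, rose (0.41, adjusted p = 0.017), and Top2b, Mcph1 and Akap8 are named after their values were seen. The 9 calls became 5 without the Mdr1- library of replicate 3, 4 without replicate 2 and 0 without replicate 3.

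**Figure D4:**
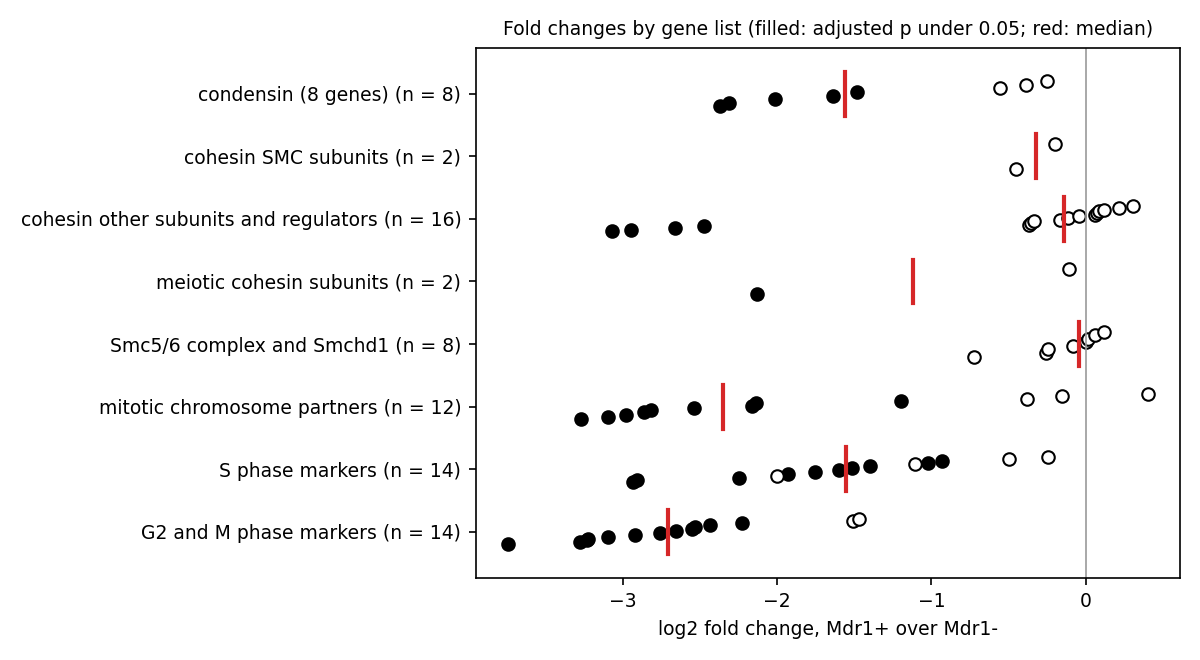
Fitted log2 fold change, Mdr1+ relative to Mdr1- (x axis), of each tested gene by list (y axis, number of genes in brackets), filled where the adjusted p was under 0.05, with the list's median in red. Filled symbols of the 10 genes lie at or below -1.48 and open ones at or above -0.56, and the Smc5/6 genes have no filled symbol.

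Outside these lists, the pattern of 5 genes (among those at an average log2 CPM of 2 or more) was most like the mean log2 CPM of the 8 condensin genes over the 6 libraries. They were Cenpi, a centromere protein gene, Prim1, a primase subunit gene, Anp32e, a histone chaperone gene, Diap3, a formin gene, and Kif11, a spindle motor gene. Likeness was measured as Pearson's r among 9642 candidates, and these genes had values of 0.995 to 0.996. The measure includes the difference between the groups, and the libraries differ in depth, so it is a description. Their log2 fold changes were -1.90, -1.31, -0.84, -2.12 and -2.02, and all 5 passed the test.

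Some reads of these genes could belong to neighbours. In GENCODE M21 an exon of Ncapg overlaps Lcorl on the opposite strand over 699 bases, and exons of Ncaph2 overlap Sco2 and Tymp over up to 829 and 535 bases. Without a stated strand setting, reads there cannot be told apart. Exons of Ncapd2 overlap the small RNA gene Scarna10 and the gene Gm28967 on its own strand, over up to 237 and 235 bases. Smc3 matched 2 other annotated genes over at most 147 bases at 95.8% to 96.6% identity, and the other 6 genes had neither an exon overlap with another gene nor a match of at least 100 bases at 95% identity.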

How the data were processed

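The authors deposited 1 table of raw read counts per gene symbol for 6 libraries of total RNA, 3 Mdr1+ and 3 Mdr1-. The submitters' processing notes name TopHat, HTSeq, DESeq2 and mm9. Versions, annotation and the strand setting were not given in the sources used here. Per the labels' protocols, column-purified, DNase-treated RNA (500 ng) went into a stranded total RNA kit. Groups and replicate numbers come from the sample titles. Where nothing says that replicates came from separate mice, p-values measure only the spread between these samples.

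The columns of replicate 3 stand in case-insensitive order of the gene names, and the rest in case-sensitive order, so their counts were assigned to the names in that order before any test. Spearman correlations across genes with replicates 1 and 2 rose from 0.424 to 0.460 as deposited to 0.926 to 0.962. The 5 rows of unassigned reads, given for 4 libraries, stayed out of totals and tests. In these 4 libraries 67.0% to 73.2% of all entries, counted in genes or unassigned, lacked a unique position.

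Fits used edgeR 4.0.16 in R 4.3.3 with TMM scaling, filterByExpr by group and robust quasi-likelihood F tests of a model holding group alone. Standard errors and 95% intervals were derived from its F statistic. CPM values of genes are TMM-scaled, and those of marker lists are scaled to library totals. Within a group, library pairs differed beyond sampling noise (chi-square per degree of freedom 15.3 to 56.7). Same-numbered libraries deviated together from the group means (correlations across genes of 0.41, 0.57 and 0.21). On that ground same numbers were treated as pairs in the blocked fit and in ratios by replicate number, but not in the main fit. The blocked fit is given where it changed a call. This pairing comes from the data, not from the labels. The fit without a block was tested on simulated libraries that held no effect of the replicate number. The blocked fit was not tested in this way. Alternatives were DESeq2 1.42.0, its size factors in edgeR, no filter, the block, and fits without a library or a replicate number.

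The 10 genes, the lists and the rule for named genes were chosen with earlier results of these data known. The rule named all 10 genes, the called genes of the related lists, up to 12 uncalled ones, the 3 lowest adjusted p-values of each phase list, and the 5 genes most alike.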

Additional observations from a re-analysis of the deposited data

How the results depend on the processing

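With DESeq2's size factors in edgeR, with DESeq2 and with no filter, the same 5 of the 10 genes fell as in the edgeR fit. Over all tested genes, DESeq2 called 378 lower and 102 higher, against 212 and 30, and the unfiltered fit called 52 higher. With the replicate block, 8 of the 10 genes fell, and over all genes 716 were lower and 633 higher. The block added 1 higher call among cohesin regulators, 1 higher call among mitotic chromosome partners and 1 lower call among Smc5/6 genes. Fits with the block that left out replicate 1, 2 or 3 called 9, 5 and 6 of the 10 genes, 694, 392 and 1347 genes lower and 436, 259 and 1131 higher. In the blocked fit without replicate 3, calls were 2 higher among cohesin regulators, 1 higher among partners, 1 lower among Smc5/6 genes and 0 for meiotic cohesin, and the blocked fit without replicate 1 also had 1 lower Smc5/6 gene. Among the members and named genes, the block changed no call other than those given beside them.

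Over the fits that left out 1 library or 1 replicate number, without a block, calls ranged from 0 to 5 for the 10 genes and for the 8 condensin genes, from 0 to 196 for all lower genes and from 0 to 15 for all higher genes. They ranged from 0 to 4 for cohesin regulators, 0 to 1 for meiotic cohesin, 0 to 9 for partners, 0 to 10 for S phase and 0 to 12 for G2 and M phase markers. All of the 0 counts for the 10 genes came without replicate 3. The cause of these changes was not tested. The condensin I over condensin II log2 ratio kept its direction without any 1 library (-1.23 to -0.98).

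Directions changed for 6 cohesin regulators that did not pass. Without a library or replicate the log2 fold change ranged from -0.21 to 0.23 for Stag2, -0.066 to 0.29 for Nipbl, -0.11 to 0.24 for Wapal, -0.079 to 0.46 for Esco1, -0.41 to 0.16 for Pttg1 and -0.058 to 0.14 for Hdac8. With the block it was -0.0065 and -0.0072 for Stag2 without replicate 1 and 2, and -0.023 for Wapal without replicate 1, and without replicate 2 it was 0.094 for Pttg1 and -0.056 for Hdac8. Depth limits the low genes most, since 3 counts stood for 1.35 CPM in the shallowest library.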
